A study of Mus musculus with 6 samples.

Results

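Regulatory T cell genes are described here in naïve CD4 T cells of control and Rnmt cKO mice. The set held 10 genes, Foxp3, Il2ra, Ctla4, Ikzf2, Ikzf4, Tnfrsf18, Tnfrsf4, Lrrc32, Nrp1 and Gpr83, taken by symbol from 46983 genes in the count tables, and all 10 were among the 12336 genes tested. Expression was measured by sequencing of rRNA-depleted RNA in 6 libraries of male mice. The 3 control libraries came from Rnmt fl/fl CD4cre - animals. The 3 Rnmt cKO libraries came from Rnmt fl/fl CD4cre + animals, in which the Cd4-cre transgene deletes exon 3 of Rnmt, the gene of the RNA cap guanosine methyltransferase. Both groups carried the floxed alleles, and the transgene was present in Rnmt cKO mice alone, so that Cre and the loss of Rnmt cannot be told apart. This Cre acts in every descendant of CD4-expressing thymocytes, regulatory T cells included. The labels give no age and do not say that each library came from its own animal, so p-values measure the spread between libraries.

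Regulatory T cells are CD4 T cells that restrain other lymphocytes. Their identity rests on the transcription factor FOXP3, they take up IL-2 through a receptor whose alpha chain (CD25) is encoded by Il2ra, and they act in part through surface proteins such as CTLA-4. Several of the 10 genes are also switched on for a time in conventional T cells after antigen receptor stimulation. The cells had been sorted from lymph nodes as viable naïve cells, with TCRβ and CD4 among the positive markers and CD44 as a negative one. CD25 is not among the sort markers listed, so resting regulatory T cells could pass the gate.

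The libraries held between 8873413 and 11277764 sense counts assigned to genes. Rnmt itself was lower in Rnmt cKO cells, with 438, 588 and 524 counts in controls and 397, 444 and 297 in Rnmt cKO libraries, a log2 fold change of -0.67 ± 0.20 (SE) and, in the edgeR exact test, an adjusted p of 0.00035. These counts span the whole gene and cannot show how much intact transcript remained. Cd4 was higher, at 657 to 688 CPM (counts relative to the TMM-scaled size of the library) in controls and 823 to 909 CPM in Rnmt cKO libraries, with a log2 fold change of 0.35 ± 0.05 (SE) and an adjusted p of 0.00491 in the edgeR exact test, which was 0.0759 without control 2. Cd44, the negative sort marker, was lower, at 36.8 to 53.3 CPM in controls and 18.5 to 22.9 CPM in Rnmt cKO libraries. Its log2 fold change was -1.05 ± 0.19 (SE) with an edgeR exact test adjusted p of 1.32e-08, and it passed in 16 of 16 alternative settings. The share of uniquely mapped reads assigned to no gene ran from 36.1% to 46.1% in controls and from 31.8% to 47.9% in Rnmt cKO libraries. Such reads can lie within genes, in introns or on the opposite strand. For all 5 of the genes called below, the log2 ratio had the same sign within the 3 libraries of lower share (2 control, 1 Rnmt cKO) and within the 3 of higher share (1 control, 2 Rnmt cKO). With a single library in 1 arm of each set, these values were not tested.

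The 10 genes did not move together. Foxp3, Nrp1 and Il2ra fell in Rnmt cKO cells, Tnfrsf4 and Gpr83 rose, and Ctla4, Ikzf2, Ikzf4, Tnfrsf18 and Lrrc32 did not pass the test. Calls rest on edgeR's exact test, with p-values adjusted over all tested genes after Benjamini-Hochberg and a threshold of 0.05. It called 14.8% of all tested genes, 8.00% as higher and 6.84% as lower in Rnmt cKO cells, against 5 of the 10 genes here, 2 higher and 3 lower. Values of the 2 groups did not overlap, with Rnmt cKO above control, for 2 of the 10 genes and for 16.6% of all tested genes. They did not overlap with Rnmt cKO below control for 4 of the 10 and for 14.9% of all, and in either direction for 31.4% of all. The median log2 fold change of the 10 genes was -0.22 and that of all tested genes 0.01. The summed expression of the 10 genes was 348 to 406 CPM in controls and 329 to 345 CPM in Rnmt cKO libraries. In libraries made from many cells, fewer regulatory T cells and less RNA of a gene per cell cannot be told apart.

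**Figure D1:**
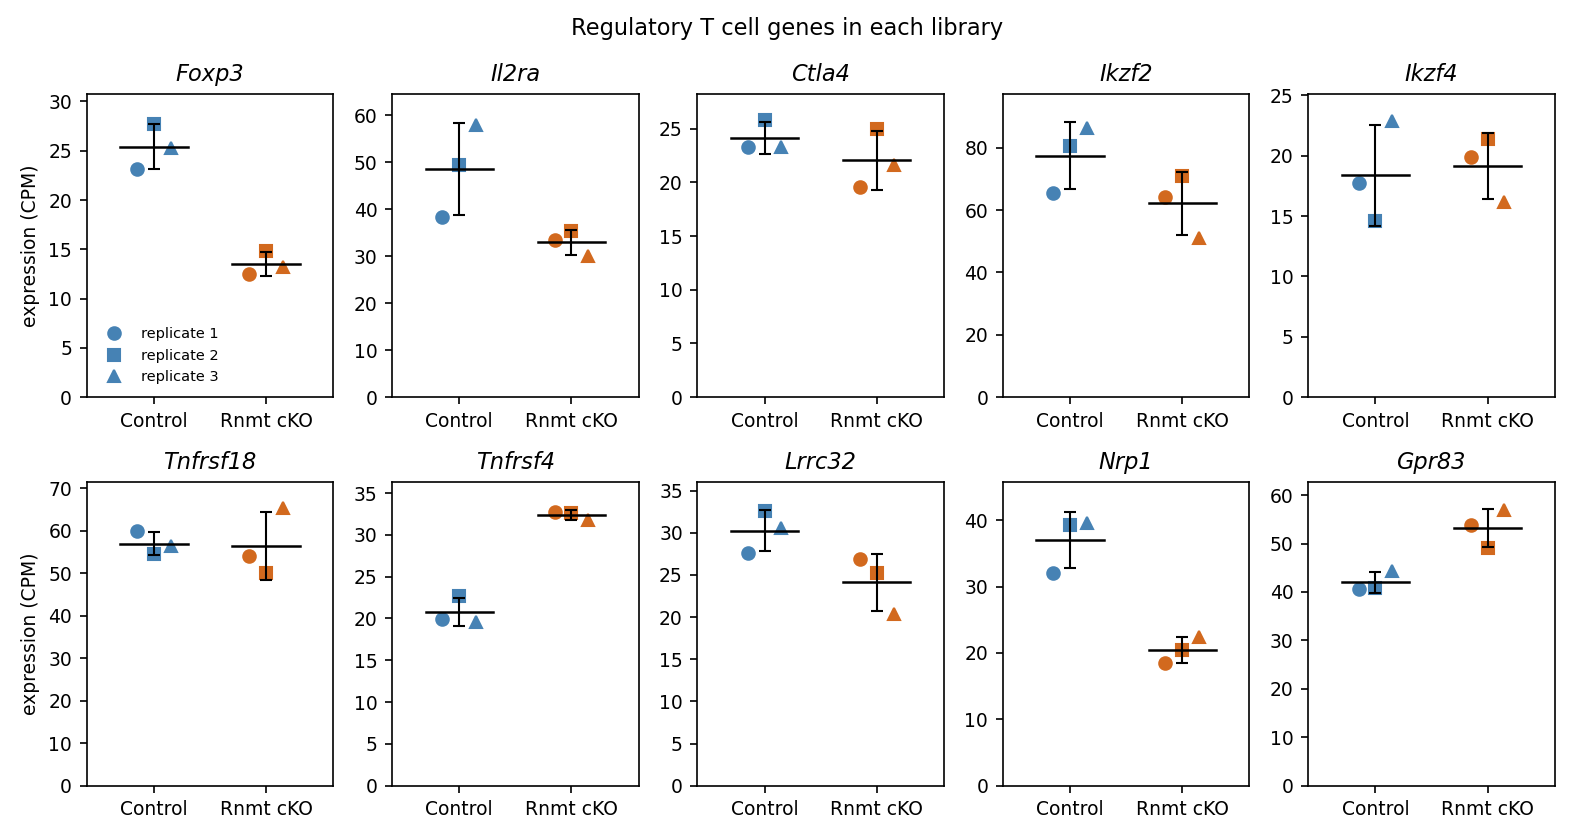
Expression of the 10 regulatory T cell genes in CPM (vertical axes, from 0) in each of 3 control and 3 Rnmt cKO libraries, 1 panel a gene. Points are libraries, long bars are means and error bars are SD. Foxp3, Nrp1, Il2ra and Lrrc32 lie lower in every Rnmt cKO library than in any control, Tnfrsf4 and Gpr83 lie higher, and the other 4 genes overlap.

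Foxp3 (ENSMUSG00000039521, chromosome X, 7573644 to 7595245, plus strand, GRCm38) encodes the transcription factor that defines the lineage. It was expressed at 23.2, 27.7 and 25.3 CPM in controls 1, 2 and 3 and at 12.5, 14.8 and 13.2 CPM in Rnmt cKO libraries 1, 2 and 3. The highest Rnmt cKO value was well below the lowest control. The mean fell from 25.4 ± 2.30 to 13.5 ± 1.22 CPM (SD, n = 3 in each group), which is 53.2% of the control level. The log2 fold change was -0.91 ± 0.10 (SE) with an edgeR exact test adjusted p of 1.49e-08. Among the 10 genes it had the lowest log2 fold change, and it passed the test in 16 of 16 alternative settings.

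The Foxp3 locus holds other transcripts, and its counts depend on strand. On the same strand, GENCODE vM21 places Flicr, a non-coding RNA known to affect Foxp3 expression, from 7573600 to 7581027, across the 5′ part of Foxp3. Its 28, 37 and 43 counts in controls and 23, 32 and 20 in Rnmt cKO libraries gave a log2 fold change of -0.76 ± 0.22 (SE) with an edgeR exact test adjusted p of 0.0594 and did not pass. Flicr was named after its values had been seen, and sense reads shared by exons of Flicr and Foxp3 count for neither gene. On the opposite strand, Ppp1r3f overlaps the 5′ end of Foxp3 and Ccdc22 its 3′ end, and the transcript Gm36995, with 0 or 1 sense counts a library, spans the whole gene. Reads on the strand opposite to Foxp3 made up 49.8% to 65.5% of the reads over its exons, and at most 4.95% over the exons of any of the other 9 genes. The sum of sense and antisense counts was an alternative chosen after the data had been seen. Over the exons of Foxp3 it was 441, 554 and 470 in controls and 342, 419 and 387 in Rnmt cKO libraries. This sum blends Foxp3 with opposite-strand reads. Its log2 fold change was -0.59, with an adjusted p of 5.56e-07 in the edgeR exact test. The deposited column for either strand, which leaves out reads shared between overlapping genes, held 255, 344 and 320 against 195, 239 and 176 counts and gave -0.82.

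Ikzf2 and Ikzf4 encode Helios and Eos, zinc finger proteins of the Ikaros family that work with FOXP3. Ikzf2 (ENSMUSG00000025997, chromosome 1, 69531214 to 69687245, minus strand) was at 65.5, 80.5 and 86.5 CPM in controls and 64.4, 70.95 and 51.1 CPM in Rnmt cKO libraries. The groups overlapped, through control 1. Its log2 fold change was -0.32 ± 0.18 (SE) with an edgeR exact test adjusted p of 0.126, and it passed the test without control 1, with 0.039, or without Rnmt cKO 2, with 0.0493. It also passed in the quasi-likelihood test with the share of reads assigned to no gene as a covariate, with an adjusted p of 0.0021. Ikzf4 (ENSMUSG00000002578, chromosome 10, 128630843 to 128645991, minus strand) was at 17.8, 14.6 and 22.9 CPM in controls and at 19.9, 21.4 and 16.1 CPM in Rnmt cKO libraries. These values interleave. The log2 fold change was 0.06 ± 0.22 (SE) with an edgeR exact test adjusted p of 0.913, and its sign was negative without control 2 or without Rnmt cKO 2.

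Il2ra (ENSMUSG00000026770, chromosome 2, 11642807 to 11693193, plus strand) encodes CD25. It was expressed at 38.3, 49.4 and 57.99 CPM in controls and at 33.5, 35.3 and 30.1 CPM in Rnmt cKO libraries. The controls were spread widely, and the lowest of them was still above every Rnmt cKO library. The mean fell from 48.6 ± 9.86 to 32.96 ± 2.62 CPM (SD, n = 3 in both groups), and gave a log2 fold change of -0.56 ± 0.19 (SE) and, in the edgeR exact test, an adjusted p of 0.00314. Without control 3 the log2 fold change was -0.42 and the adjusted p 0.0557. With scaling to library size alone it was -0.44 with an adjusted p of 0.0544. That scaling moved the median of all tested genes from 0.01 to 0.14, and relative to this median Il2ra was at -0.57 with TMM factors and at -0.58 without.

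Several genes that work with CD25 rose. Il2rb and Il2rg encode the beta and gamma chains of the IL-2 receptor, and Jak3 and Stat5a encode the kinase and the transcription factor that carry its signal. Il2rb was at 76.7 to 82.9 CPM in controls and 94.9 to 121 CPM in Rnmt cKO libraries, with a log2 fold change of 0.39 ± 0.11 (SE) and, in the edgeR exact test, an adjusted p of 0.00491. Without control 3 that adjusted p was 0.0571. Il2rg rose by 0.41 ± 0.04 (log2, SE) from 138 ± 6.50 to 182 ± 3.59 CPM (SD, n = 3), with an adjusted p of 0.000127 in the same exact test. Jak3 rose by 0.85 ± 0.07 (log2, SE), from 115 to 118 CPM in controls to 190 to 221 CPM in Rnmt cKO libraries, with an exact test adjusted p of 3.55e-16. Stat5a rose by 0.52 ± 0.07 (log2, SE), with an exact test adjusted p of 2.74e-06. For Stat5b and Jak1 the log2 fold changes were -0.10 and 0.13, with adjusted p-values of 0.586 and 0.464 in the exact test.

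Nrp1, Lrrc32 and Ctla4 encode surface proteins. Neuropilin-1, the product of Nrp1 (ENSMUSG00000025810, chromosome 8, 128358604 to 128503363, plus strand), is a receptor for semaphorins and growth factors that marks many regulatory T cells of thymic origin. Nrp1 was at 32.1, 39.3 and 39.5 CPM in controls and at 18.5, 20.4 and 22.4 CPM in Rnmt cKO libraries. The groups lay far apart in relation to their spread. The mean fell from 36.99 ± 4.24 to 20.4 ± 1.96 CPM (SD, n = 3 in each group), or to 55.3% of the control level. On the log2 scale the difference was -0.85 ± 0.13 (SE) with an edgeR exact test adjusted p of 1.94e-08, and it passed in 16 of 16 alternative settings.

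Lrrc32 (ENSMUSG00000090958, chromosome 7, 98489283 to 98502181, plus strand) encodes GARP, which holds latent TGF-β on the surface of regulatory T cells. It was at 27.6, 32.5 and 30.6 CPM in controls and at 26.8, 25.2 and 20.3 CPM in Rnmt cKO libraries. Every Rnmt cKO library was below every control, with a narrow gap. On the log2 scale the difference was -0.33 ± 0.14 (SE) with an edgeR exact test adjusted p of 0.104, above the threshold. In the quasi-likelihood test with the share of reads assigned to no gene as a covariate the adjusted p was 0.00988.

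Ctla4 (ENSMUSG00000026011, chromosome 1, 60887000 to 60915832, plus strand) encodes the receptor that competes with CD28 for its ligands. It was at 23.28, 25.9 and 23.31 CPM in controls and at 19.5, 24.97 and 21.6 CPM in Rnmt cKO libraries. The groups overlapped through Rnmt cKO 2. On the log2 scale the difference was -0.13 ± 0.11 (SE) with an edgeR exact test adjusted p of 0.638. Its neighbours of the same family, Cd28 and Icos, lie 113640 bases before and 62094 bases after it, and their log2 fold changes were -0.14 and 0.18, with adjusted p-values of 0.372 and 0.349 in the exact test.

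Tnfrsf4 and Tnfrsf18 encode OX40 and GITR, costimulatory receptors of the TNF receptor superfamily that regulatory T cells carry at rest and other T cells acquire after activation. The genes lie on the plus strand of chromosome 4, with 9551 bases between the end of Tnfrsf4 (ENSMUSG00000029075, 156013843 to 156016612) and the start of Tnfrsf18 (ENSMUSG00000041954, 156026164 to 156028895). Tnfrsf4 was at 19.99, 22.7 and 19.55 CPM in controls and at 32.8, 32.7 and 31.7 CPM in Rnmt cKO libraries. The Rnmt cKO values were close together and above every control. The mean rose from 20.7 ± 1.68 to 32.4 ± 0.57 CPM (SD, n = 3 in each group), or to 156% of the control level. The log2 fold change was 0.64 ± 0.07 (SE) with an edgeR exact test adjusted p of 3.91e-06, and it passed in 16 of 16 alternative settings. Tnfrsf18 was at 59.96, 54.6 and 56.3 CPM in controls and at 54.1, 49.9 and 65.3 CPM in Rnmt cKO libraries. The Rnmt cKO libraries lay on both sides of the controls. The log2 fold change was -0.01 ± 0.12 (SE) with an edgeR exact test adjusted p of 0.986, while library size alone as the scaling gave 0.11. Another receptor gene of the family, Tnfrsf9, encodes 4-1BB and lies on chromosome 4 as well, from 150914562 to 150946102. It rose from 18.9 ± 2.01 to 31.2 ± 3.81 CPM (SD, n = 3 in both groups), and gave a log2 fold change of 0.73 ± 0.14 (SE) and, in the edgeR exact test, an adjusted p of 1.43e-05.

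Gpr83 (ENSMUSG00000031932, chromosome 9, 14860210 to 14870789, plus strand) encodes a G protein-coupled receptor found on regulatory T cells. It was at 40.7, 40.8 and 44.4 CPM in controls and at 53.8, 49.1 and 56.9 CPM in Rnmt cKO libraries. Every Rnmt cKO library was above every control. The mean rose from 41.97 ± 2.11 to 53.3 ± 3.93 CPM (SD, n = 3 in both groups), and gave a log2 fold change of 0.34 ± 0.07 (SE) and, in the edgeR exact test, an adjusted p of 0.014. The call was lost in DESeq2, with an adjusted p of 0.0711, and without control 1, control 2 or Rnmt cKO 1, where the exact test gave 0.102, 0.125 and 0.0728.

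**Figure D2:**
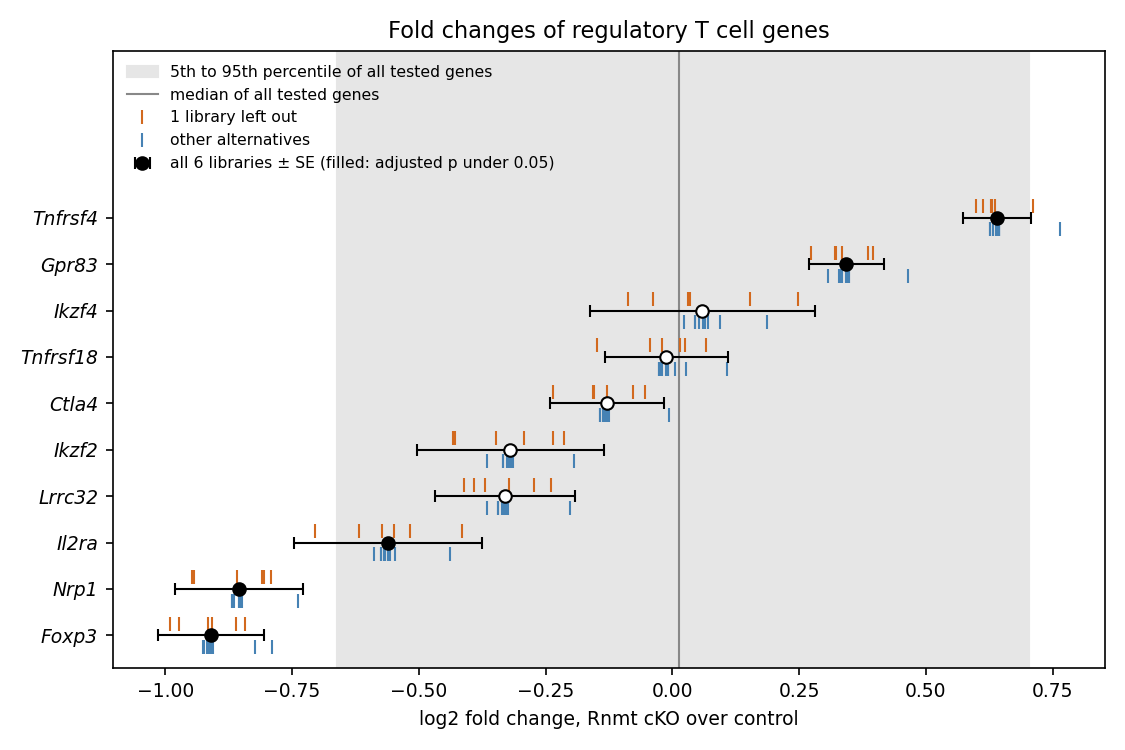
Log2 fold changes (Rnmt cKO over control, horizontal axis) of the 10 genes. Circles with bars are values from all 6 libraries with their SE, filled where the adjusted p was under 0.05. Ticks above each circle leave out 1 library and ticks below it are the other 10 alternatives, without the sum of both strands. The grey band spans the 5th to 95th percentile of all tested genes, -0.66 to 0.70, and Foxp3 and Nrp1 lie below it with every tick.

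Upstream sequences are shown for genes that passed the test, since these moved in opposite directions. RefSeq promoters (GRCm38.p6) were matched by symbol for 7 of the 10 genes, with 8 transcription starts, 2 of them for Foxp3. Entries for Ikzf2, Ikzf4 and Lrrc32 were not used here. The windows of the first Foxp3 start and of Tnfrsf4 overlap annotated untranslated exon sequence, of Foxp3 itself and of Sdf4, and are not printed. Each line gives the 250 bases before a start, 5′ to 3′ on the plus strand, with motif matches in capitals. They lie at chrX:7580233-7580482 for the second Foxp3 start, chr2:11642542-11642791 for Il2ra, chr8:128358823-128359072 for Nrp1 and chr9:14859960-14860209 for Gpr83. By GENCODE vM21 coordinates, the Nrp1 window lies within Nrp1. That of the second Foxp3 start lies within Foxp3 and Flicr, after the first Foxp3 start.
Foxp3, second start: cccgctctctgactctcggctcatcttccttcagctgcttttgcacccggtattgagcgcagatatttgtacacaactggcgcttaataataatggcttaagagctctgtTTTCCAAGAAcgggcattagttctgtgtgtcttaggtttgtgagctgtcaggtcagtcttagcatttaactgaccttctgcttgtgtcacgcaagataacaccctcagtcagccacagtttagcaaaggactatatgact
Il2ra: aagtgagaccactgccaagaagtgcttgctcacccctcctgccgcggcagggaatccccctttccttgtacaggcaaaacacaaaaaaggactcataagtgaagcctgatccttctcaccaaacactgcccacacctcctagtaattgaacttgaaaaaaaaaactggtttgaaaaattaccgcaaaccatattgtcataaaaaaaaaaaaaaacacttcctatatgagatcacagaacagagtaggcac
Nrp1: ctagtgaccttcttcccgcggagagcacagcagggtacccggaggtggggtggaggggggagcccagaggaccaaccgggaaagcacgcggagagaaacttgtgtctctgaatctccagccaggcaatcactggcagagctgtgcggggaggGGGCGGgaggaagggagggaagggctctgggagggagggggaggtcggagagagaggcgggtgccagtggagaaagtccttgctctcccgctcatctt
Gpr83: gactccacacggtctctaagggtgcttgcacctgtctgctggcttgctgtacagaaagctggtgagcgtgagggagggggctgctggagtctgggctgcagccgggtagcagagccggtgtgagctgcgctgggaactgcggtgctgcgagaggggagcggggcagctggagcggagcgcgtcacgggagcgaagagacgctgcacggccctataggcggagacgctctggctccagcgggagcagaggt

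The motifs searched, on both strands, were TTCNNNGAA for STAT factors, TGTTTAC for forkhead factors, TGGAAA for NFAT, GGGCGG for the GC box and TATAAA for the TATA box. The first Foxp3 start has TATAAA from 32 bases before it. The second has TTCNNNGAA from 139 bases before it, which overlaps a TGGAAA match from 140 bases before it. Among genes that did not pass the test, Ctla4 has a TGGAAA match 144 bases and Tnfrsf18 a TTCNNNGAA match 99 bases before its start. By GENCODE vM21 coordinates, both of these matches lie within the gene itself. A TGGAAA match lies 220 bases before the Tnfrsf4 start and a GGGCGG match 98 bases before that of Nrp1, and the windows of Il2ra and Gpr83 hold none of the 5 motifs. Among all 32851 promoters in the table, TTCNNNGAA is found in 7.02%, TGTTTAC in 3.17%, TGGAAA in 18.6%, GGGCGG in 32.7% and TATAAA in 12.4%. No member start reads C followed by 4 pyrimidines, the start of TOP mRNAs, which 2.505% of all promoters in the table have. A match or its lack in these windows is a description and says nothing of binding.

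Expression per exon length ordered the genes in a similar way in both groups. In controls Tnfrsf18 was highest, at 45.2 ± 2.17 RPKM (reads per kilobase of exon scaled to library size as for CPM, SD, n = 3), followed by Tnfrsf4 at 20.1 ± 1.63. Next came Ctla4 at 12.5 ± 0.765 and Gpr83 at 11.7 ± 0.588 RPKM, whose ranges overlapped. Nrp1, Il2ra, Ikzf2, Lrrc32 and Foxp3 followed, from 10.3 ± 1.18 down to 6.20 ± 0.56 RPKM, and each of these overlapped the next. Ikzf4 was lowest, at 3.16 ± 0.717 RPKM. In Rnmt cKO cells Tnfrsf18 at 44.8 ± 6.32 and Tnfrsf4 at 31.4 ± 0.549 RPKM were still the highest. Gpr83, at 14.9 ± 1.10 RPKM, lay above the range of Ctla4, and Foxp3, at 3.29 ± 0.298, overlapped Ikzf4 at 3.28 ± 0.467. The RPKM of Foxp3 may be too low in both groups, since reads shared with Flicr exons are left out and the full exon length is used.

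**Figure D3:**
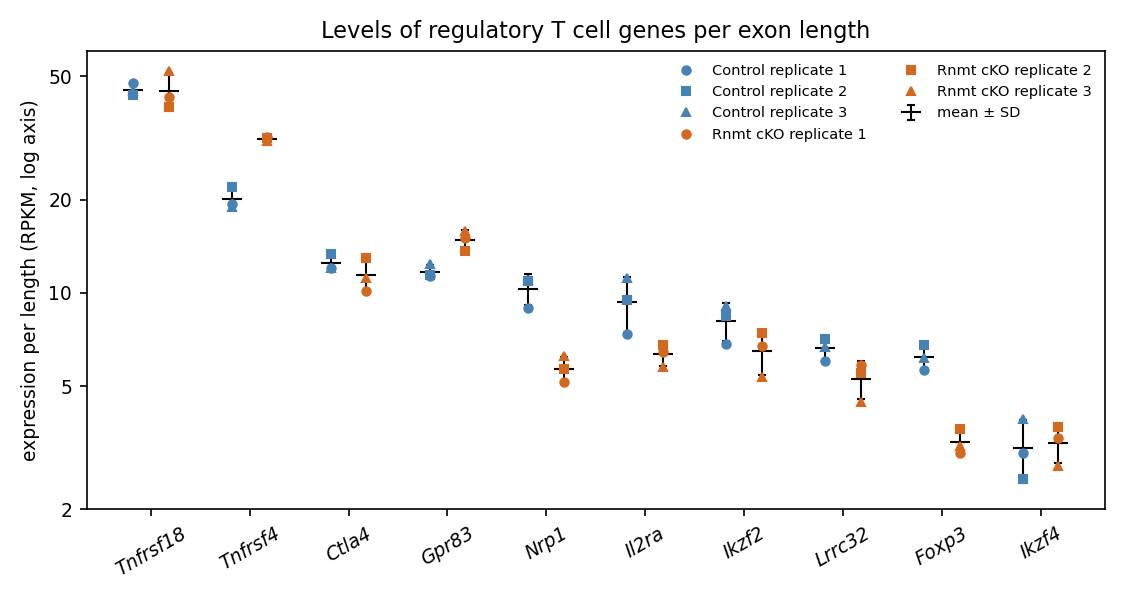
Expression per exon length (RPKM, logarithmic vertical axis) of the 10 genes in each control and Rnmt cKO library, ordered by control mean. Points are libraries and black marks are mean ± SD (n = 3). Tnfrsf18 is highest in both groups, and Foxp3 meets Ikzf4 at the bottom in Rnmt cKO cells. Foxp3 values may be too low, since reads shared with Flicr exons are left out.

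Other genes known to be enriched in regulatory T cells were also mixed. Of 25 such genes, 18 were tested, 3 were higher, 3 were lower and 12 did not pass, and the median log2 fold change was -0.07. For comparison, 8.00% of all tested genes were higher and 6.84% lower. Entpd1, which encodes the ectonucleotidase CD39, was at 3.88, 5.19 and 3.98 CPM in controls and 2.11, 2.19 and 0.807 CPM in Rnmt cKO libraries. It fell with a log2 fold change of -1.35 ± 0.43 (SE) and, in the edgeR exact test, an adjusted p of 0.00163. The chemokine receptor gene Ccr4 fell by 1.09 ± 0.10 (log2, SE) from 3.17 ± 0.331 to 1.48 ± 0.124 CPM (SD, n = 3), with an exact test adjusted p of 0.00445, and did not pass in DESeq2, with 0.0619. Capg, which encodes an actin-capping protein, was at -0.69 ± 0.26 (SE) with an exact test adjusted p of 0.00552, although control 3 and Rnmt cKO 3 overlapped at 26.5 and 26.6 CPM. It did not pass without control 1, Rnmt cKO 1 or Rnmt cKO 2, with 0.0867, 0.0551 and 0.0604. The higher genes were Tnfrsf9, described above, the phosphatase gene Dusp4 and the proenkephalin gene Penk. Dusp4 rose from 5.53 ± 0.316 to 9.43 ± 0.439 CPM (SD, n = 3), with an exact test adjusted p of 0.00117. In the quasi-likelihood test with the replicate number as a block, Entpd1, Ccr4, Capg and Dusp4 did not pass. Their adjusted p-values in that test were 0.0598, 0.0934, 0.111 and 0.074, while Tnfrsf9 and Penk passed. Penk rose from 0.543 ± 0.0877 to 1.88 ± 0.565 CPM (SD, n = 3), with an exact test adjusted p of 0.00157, on 4 to 6 counts a library in controls. It was under 1 CPM in every control and was tested only because its Rnmt cKO libraries, at 1.52 to 2.53 CPM, passed the filter. The numbers of higher and lower genes on this list thus depend on the filter. The 7 genes that were not tested were Tigit, Klrg1, Il1rl1, Il10, Ebi3, Plagl1 and Fgl2. Among them, Plagl1 was at 1.06 to 1.44 CPM in controls and 0.317 to 0.759 CPM in Rnmt cKO libraries. Il1rl1 went the other way, at 0.353 to 0.799 CPM in controls and 0.896 to 1.69 CPM in Rnmt cKO libraries.

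Among 24 genes of the pathways that induce Foxp3 or act with it, all tested, 7 were higher, 1 was lower and 16 did not pass. Their median log2 fold change was 0.06. Shares over all tested genes were 8.00% higher and 6.84% lower. Besides the IL-2 receptor genes above, Nr4a1 rose from 26.4 ± 2.02 to 49.4 ± 2.98 CPM (SD, n = 3), with a log2 fold change of 0.91 ± 0.08 (SE) and, in the edgeR exact test, an adjusted p of 4.88e-13. Nr4a1 and Nr4a3 encode nuclear receptors made rapidly after antigen receptor stimulation. Nr4a3 was at 13.8, 15.9 and 18.8 CPM in controls and 19.5, 27.5 and 22.3 CPM in Rnmt cKO libraries, with an exact test adjusted p of 0.0225, and did not pass in the quasi-likelihood test, with 0.0584, in DESeq2, with 0.056, or without control 1, control 2 or Rnmt cKO 2, with 0.175, 0.13 and 0.225. Smad2, which carries TGF-β signals, rose by 0.29 ± 0.03 (log2, SE) with an exact test adjusted p of 0.0156. Nfatc2, an activator of Foxp3, was the lower gene, at 116 ± 3.09 and 92.8 ± 4.28 CPM (SD, n = 3) with an exact test adjusted p of 0.00531. Runx1, Cbfb, Foxo1, Foxo3, Bach2, Smad3, Tgfbr1 and Tgfbr2 did not pass.

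Of 9 genes that regulatory T cells keep low, 8 were tested, 1 was higher and 3 were lower. All tested genes gave 8.00% higher and 6.84% lower. Il7r, the IL-7 receptor gene, was at 381, 386 and 336 CPM in controls and 203, 191 and 175 CPM in Rnmt cKO libraries, and fell with a log2 fold change of -0.96 ± 0.09 (SE) and, in the edgeR exact test, an adjusted p of 2.44e-17. Pde3b, a gene that FOXP3 represses, fell to 72.9% of control with an exact test adjusted p of 8.12e-05. Dapl1 fell by 1.83 ± 0.24 (log2, SE) and Igfbp4 rose by 1.13 ± 0.14 (log2, SE), with adjusted p-values of 5.04e-22 and 2.17e-15 in the exact test. Satb1, Tcf7, Lef1 and Actn1 had log2 fold changes of 0.06, 0.19, 0.03 and 0.03 and did not pass.

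**Figure D4:**
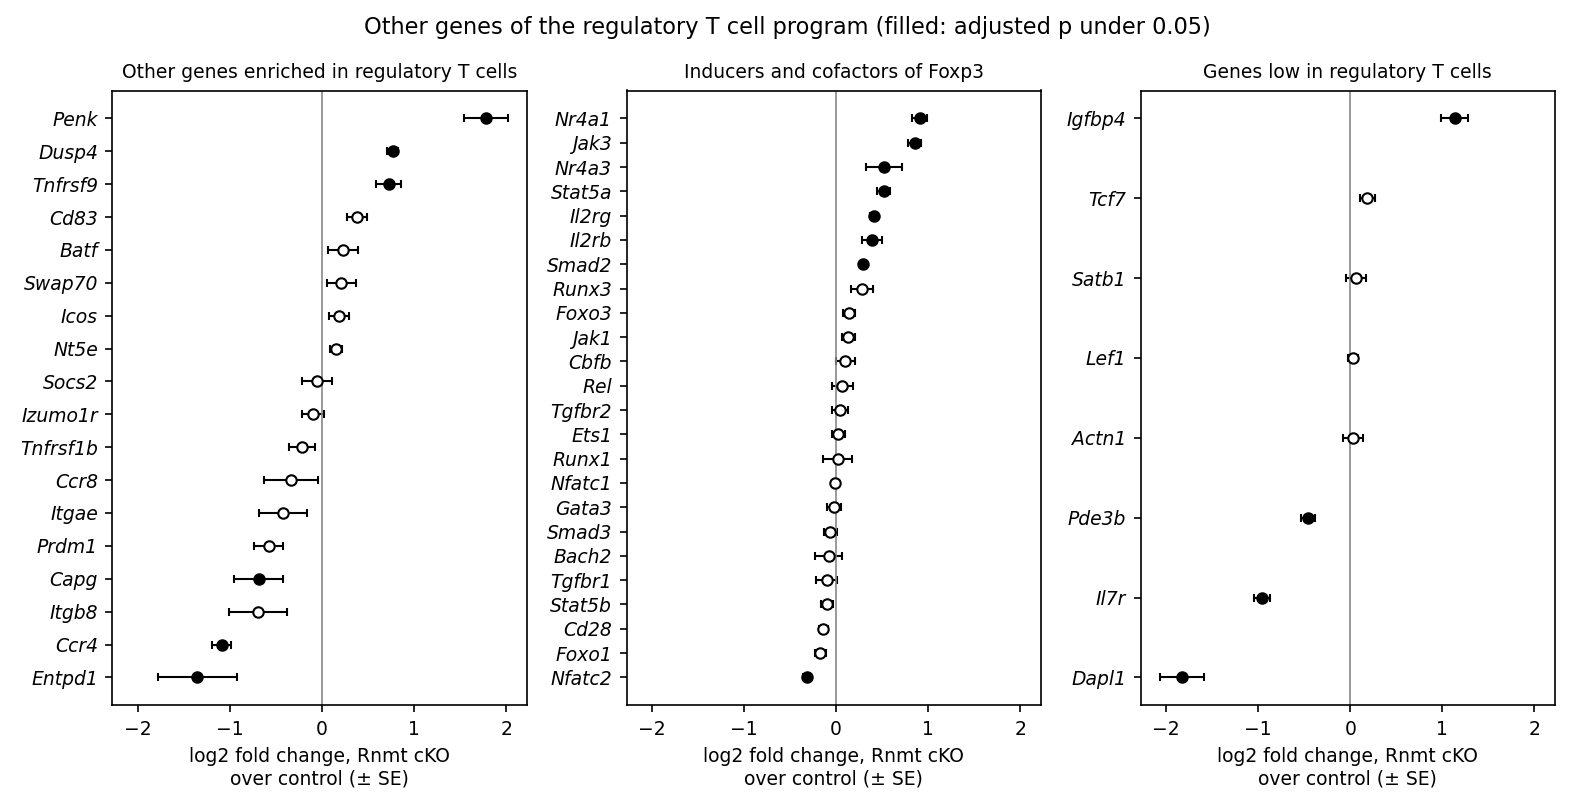
Log2 fold changes (Rnmt cKO over control, horizontal axes, with SE bars) of tested genes in 3 lists, other genes enriched in regulatory T cells (18), inducers and cofactors of Foxp3 (24) and genes low in regulatory T cells (8). Filled circles have an adjusted p under 0.05, and each list holds filled circles on both sides of 0.

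Markers of other cells moved too, and their part in the results above was not tested. Their counts below stand beside 8.00% higher and 6.84% lower among all tested genes. Of 10 proliferation markers 9 were higher, and their sum was 168 to 190 CPM in controls and 434 to 470 CPM in Rnmt cKO libraries. Of 14 memory and effector markers 7 were tested, with Il2rb higher and Cd44 lower, and their sums overlapped, at 209 to 216 CPM and 193 to 237 CPM. Of 9 B cell markers 5 were higher, with sums of 44.5 to 53.5 CPM in controls and 59.7 to 96.1 CPM in Rnmt cKO libraries. Several of these B cell calls were unstable, and Cd79b, Ebf1 and Cr2 passed in 5 of 16, 7 of 15 and 8 of 15 alternatives. Both CD8 T cell markers were lower, with sums of 21.7 to 23.3 CPM and 13.5 to 17.3 CPM. Cd8a passed in 4 of 15 alternatives, with an adjusted p of 0.202 in DESeq2 and 0.09996 in the quasi-likelihood test, and lost the call without any 1 of controls 1 to 3 or of Rnmt cKO 1 and 2. Cd8b1 passed in 14 of 16, with an exact test adjusted p of 0.0505 without Rnmt cKO 2. Natural killer cell markers had 2 of 6 tested, with Eomes higher and Prf1 lower and sums of 34.8 to 42.0 CPM and 21.3 to 28.0 CPM, while Ncr1, Klrb1c and Klre1 were under 1 CPM in every library. Of 12 myeloid and dendritic cell markers 3 were tested and Lyz2 was higher, with sums of 14.2 to 15.8 CPM and 16.8 to 28.5 CPM. The highest sum was that of Rnmt cKO 2, and Lyz2 was at 5.18, 13.8 and 5.92 CPM in Rnmt cKO 1, 2 and 3. In the quasi-likelihood test with the replicate number as a block, Lyz2 did not pass, with an adjusted p of 0.0795.

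Nrp1 and Lrrc32 are also made by endothelial and stromal cells and Lrrc32 by platelets. Among 6 platelet markers Pf4, Ppbp, Gp9 and Gp1bb had no count in any library, and the sums, nearly all Itgb3, were 168 to 195 CPM in controls and 173 to 187 CPM in Rnmt cKO libraries. Among 9 endothelial and stromal markers 7 held at most 3 counts in each library, and the sums, nearly all Pecam1, were 284 to 320 CPM and 309 to 332 CPM. Plasmacytoid dendritic cells are another source of Nrp1. Of their markers, Siglech was at 0.538 CPM or lower in every library. Ccr9, which T cells also express, was at 7.17 to 8.62 CPM in controls and 5.15 to 6.13 CPM in Rnmt cKO libraries, without overlap, with a log2 fold change of -0.50 and an adjusted p of 0.0898 in the edgeR exact test. Its part in the difference of Nrp1 was not tested.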

How the data were processed

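Paired-end reads from rRNA-depleted libraries had been aligned by the authors to mm10 (GRCm38) with STAR 2.5.2b and the GENCODE vM12 basic annotation. The deposited tables hold raw gene counts of uniquely mapped fragments, for either strand and for each strand. The series table from the authors holds their own log2 fold changes, p-values and adjusted p-values, which were not used, and a scaled signal per library. That deposited signal equals the sense counts divided by 1 constant per library within 0.1% for 100% of 11221 genes, so sense counts were used. Reads assigned to no gene or ambiguous between genes were kept out of library sizes.

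Genes above 1 CPM in at least 3 libraries were tested in edgeR 4.0.16 (R 4.3.3) with TMM factors and the exact test on tagwise dispersions. Benjamini-Hochberg adjustment ran over all tested genes, and filter and test follow those stated in the methods of the study. With more than 1 CPM in all 6 libraries instead, 845 of 11232 genes were higher and 753 lower. The paper reports the same numbers of higher and lower genes, out of a total of genes slightly below 11232. CPM are TMM-scaled, RPKM use merged exon lengths of GENCODE vM21 on the same build, and SE come from log2 CPM with a prior count of 2. A positive log2 fold change means higher in Rnmt cKO cells. Coordinates are from GENCODE vM21, in which 46488 of 46983 gene identifiers were found. Chi-square over degrees of freedom between replicates was 3.79 to 25.4, above sampling noise. The code was tested on simulated data. DESeq2 1.42.0 and the other alternatives are given in the closing section.

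The genes, lists and tests were chosen with earlier results of these data known. Named genes are the 10 genes, Rnmt, genes of each other list that passed the test (at most 6 a list by size of change) and Cd4, Cd44 and Il7r, and any other gene was named after its values were seen. Another sort marker, and the list of naïve T cell markers that holds it, are not reported here.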

Additional observations from a re-analysis of the deposited data

How the results depend on the processing

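Each result was recomputed under 10 changes of test, scaling, filter, strand or covariate and without each of the 6 libraries. Over these 16 alternatives, 140 of 160 log2 fold changes of the 10 genes kept their direction and their side of the threshold, 8 lost the call, 4 gained it and 8 changed sign. The sign changes were those of Tnfrsf18 and Ikzf4. Tnfrsf18 was at 0.11 with library size alone and 0.027 with reads of either strand. It was at 0.0053 with the share of reads assigned to no gene as a covariate, and from -0.15 to 0.066 with 1 library left out. Ikzf4 ran from -0.088 to 0.25 with 1 library left out. Among 36 other named genes, 490 of 557 values were unchanged in direction and call, 67 lost the call and 0 changed sign.

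The number of the 10 genes that were higher was 1 in DESeq2 and 1 with the replicate block, and 1 to 2 with 1 library left out. The number lower was 5 with the covariate, 2 with library size alone, 2 with the replicate block and 2 to 4 with 1 library left out. Their median was -0.10 with library size alone, where the median of all tested genes was 0.14. Over all genes, library size alone gave 1938 higher and 535 lower, so that higher genes made up 78.4% of calls against 53.9%. The covariate gave 1696 and 1466, the replicate block 431 and 276, and leaving out 1 library 643 to 1221 higher and 547 to 1285 lower. The filter of more than 10 CPM in at least 3 libraries gave 677 higher and 644 lower, and the causes of these shifts were not tested.

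The replicate numbers did not pair the libraries, with correlations of same-numbered deviations of -0.21, -0.02 and -0.35. Differently numbered libraries ran from -0.29, for control 1 with Rnmt cKO 2, to 0.35, for control 1 with Rnmt cKO 3. Control 3 with Rnmt cKO 2 was at 0.29, and the source of this shared variation was not tested. With the replicate block, the adjusted p of Il2ra was 0.0763 and that of Gpr83 0.0919, and Foxp3, Nrp1 and Tnfrsf4 passed. A count of 3 corresponds to 0.253 to 0.353 CPM, a limit that covers counting error only.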

Other observations

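Within each library, Foxp3 can be set against other regulatory T cell genes. The ratio of Tnfrsf4 to Foxp3 in CPM was 0.863, 0.817 and 0.773 in controls and 2.63, 2.20 and 2.41 in Rnmt cKO libraries. The ratio of Gpr83 to Foxp3 was 1.76, 1.47 and 1.76 in controls and 4.31, 3.31 and 4.32 in Rnmt cKO libraries. The ratio of Ctla4 to Foxp3 was 1.01, 0.932 and 0.921 in controls and 1.57, 1.68 and 1.64 in Rnmt cKO libraries. These 3 ratios did not overlap between groups. For Tnfrsf4 and Gpr83 this had to be so, since they rose and Foxp3 fell without overlap. For Ctla4, with a log2 fold change of -0.13, it follows largely from the fall of Foxp3. The ratio of Il2ra to Foxp3, at 1.65, 1.78 and 2.29 in controls and 2.69, 2.38 and 2.29 in Rnmt cKO libraries, was highest in controls at a value just above the lowest Rnmt cKO library. The ratio of Tnfrsf4 to its neighbour Tnfrsf18 was 0.333, 0.415 and 0.347 in controls and 0.605, 0.654 and 0.486 in Rnmt cKO libraries, also without overlap. The first 4 ratios share the Foxp3 values, and none of the 5 was tested. How often ratios of other gene pairs separate the groups was not computed. The ratio of Nrp1 to Foxp3 was not computed, and their log2 fold changes were alike, at -0.85 and -0.91.

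Reads on the strand opposite to Foxp3 numbered 244, 276 and 241 in controls and 224, 243 and 240 in Rnmt cKO libraries, or 26.6 to 28.7 CPM and 20.5 to 23.7 CPM. They exceeded the sense counts of Ccdc22, at 14 to 20 in controls and 11 to 17 in Rnmt cKO libraries. Ppp1r3f, which overlaps Foxp3 at its other end, had 69, 104 and 73 sense counts in controls and 186, 167 and 135 in Rnmt cKO libraries, with a log2 fold change of 0.78 ± 0.24 (SE) and, in the edgeR exact test, an adjusted p of 0.00454. Both genes were named after their values were seen. Gm36995 spans Foxp3 with 0 or 1 sense counts a library, and overlaps Ccdc22 and Ppp1r3f on their own strand. Sense counts leave out reads shared between overlapping genes of 1 strand, so those of these genes may be too low. The source of the opposite-strand reads was not tested.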
